A study of Drosophila melanogaster with 12 samples.

Results

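The comparison set control salivary glands at 14 h after pupariation against control glands at 12 h. It rests on 6 of the 12 RNA-seq libraries of the series, 3 at each time, and on the 7584 genes of 17807 in the table that passed a filter on low counts. The glands came from Drosophila melanogaster prepupae and total RNA was counted per gene. The 14 h controls and the 12 h controls had the same genotype, w1118 fkh>GFP; +/+; +/E93Δ1, so every control animal carried 1 copy of the E93Δ1 allele and none was wild type at that locus. The other 6 libraries came from w1118 fkh>GFP; +/+; E93Δ12/E93Δ13 mutants at 14 h and 12 h and enter below in a few sentences. In both genotypes GFP was driven by fkh, whose product is a transcription factor of the salivary gland, and animals ate cornmeal molasses food. E93, called Eip93F in the annotation, encodes an ecdysone-induced transcription factor.

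Metamorphosis of the fly is timed by pulses of the steroid hormone ecdysone, which binds the EcR/Usp nuclear receptor. A small set of early genes, many of them transcription factors, answers the hormone directly and in turn switches larger sets of late genes on or off. The larval salivary gland is a polyploid secretory organ that has already released its glue when the prepupa forms. After the late prepupal pulse its cells are destroyed, and both caspases and autophagy take part in that destruction. The comparison shows which transcripts differed between the times on the way to that end.

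Total counts per library were 7757344 to 8168194 at 14 h and 7588162 to 8534529 at 12 h. Levels are given as counts per 1e+06 counts of the library (CPM) after TMM scaling (trimmed mean of M-values), in the order of replicates 1, 2 and 3. A gene with 0 counts could still stand at up to 0.297 to 0.519 CPM, the level of 3 counts, a limit that covers counting error only. Whether libraries of the same group stem from different animals is not in the labels. The p-values therefore describe only how far these samples spread, which may be technical variation. Because whole glands were sampled, fewer cells of a type and less RNA per cell cannot be told apart.

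The 12 h control replicate 1 stood apart from its partners. Across the tested genes its log2 CPM correlated at 0.946 and 0.954 with the 12 h replicates 2 and 3, which correlated at 0.975 with each other, while the 14 h libraries correlated at 0.984 to 0.988. For the 1670 genes called higher at 14 h in a fit without it, replicate 1 lay at a median of 49.2% of the log2 distance between the mean of the other 12 h libraries and the mean at 14 h (quartiles 30.4% and 66.9%). For the 1913 genes called lower without it, the median was 41.8% (quartiles 24.5% and 61.0%). Between its partners and the 14 h mean lay 87.9% of the first set and 86.6% of the second. The libraries that set both ends of this scale also served to choose the genes, and no other library was placed on it. These percentages therefore have no baseline. The cause of the position of replicate 1 was not tested. Leaving this library out raised the number of calls, and values without it are given for named genes whose fold change it moves by over 1.5 times.

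**Figure D1:**
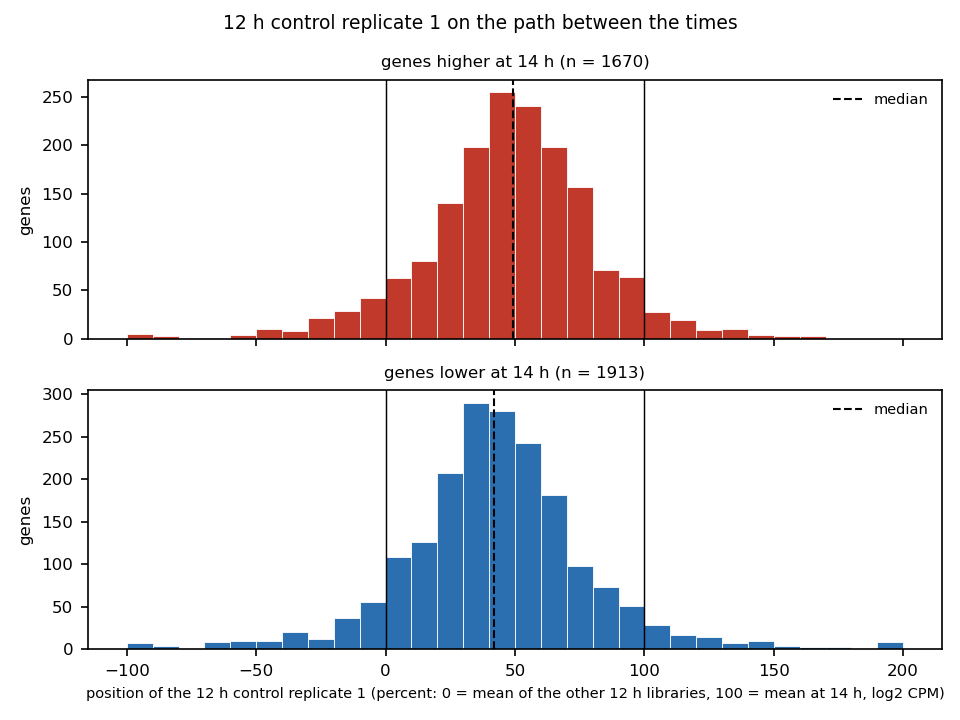
Position of the 12 h control replicate 1, in percent of the log2 CPM distance between the mean of the other 12 h libraries (0) and the mean at 14 h (100), as histograms over genes called higher at 14 h (top) and lower at 14 h (bottom) in the fit without that library. Dashed lines are medians, at 49.2% and 41.8%, and values outside the axis are gathered in the end bins. No other library was placed on this scale.

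Of the 7584 genes tested, 3277 (43.2%) differed between the times at a Benjamini-Hochberg adjusted p under 0.05 in edgeR's quasi-likelihood test. At 14 h 1575 genes (20.8%) were higher and 1702 (22.4%) were lower, and the higher genes made up 48.1% of the calls. Falls were more often large. By at least 8-fold, 63 genes rose and 238 fell. In 2306 genes (30.4%) every 14 h library was above every 12 h library, and in 1972 genes (26%) every one was below. Without the 12 h replicate 1 the calls were 1687 (21.3%) higher and 1923 (24.3%) lower, together 45.7% of 7902 tested, and 3067 genes were called in the same direction in both fits.

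The balance of rises and falls depended on the scaling. TMM factors were 1.163 to 1.237 at 14 h and 0.762 to 0.942 at 12 h, and the median log2 fold change of all tested genes was 0.12. With library size alone the median was 0.64, a shift of the median by 0.52, and single genes shifted by similar but not equal amounts. Then 3042 genes (40.1%) were called higher and 1054 (13.9%) lower, together 54% of those tested, so that the higher genes made up 74.3% of the calls. The median of a list minus the median of all tested genes is nearly unchanged by this shift, and is given beside the calls of most lists, with the calls under library size alone where these change the balance. Calls in a list are to be read against the shares over all tested genes. These were 20.8% higher and 22.4% lower, or 40.1% and 13.9% with library size alone. The share of genes that fell grew with level. With genes in 5 classes of equal size by level, 18.1% rose and 50.2% fell in the highest class, at 61.7 CPM or more on average, and 11.5% rose and 6.66% fell in the lowest.

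**Figure D2:**
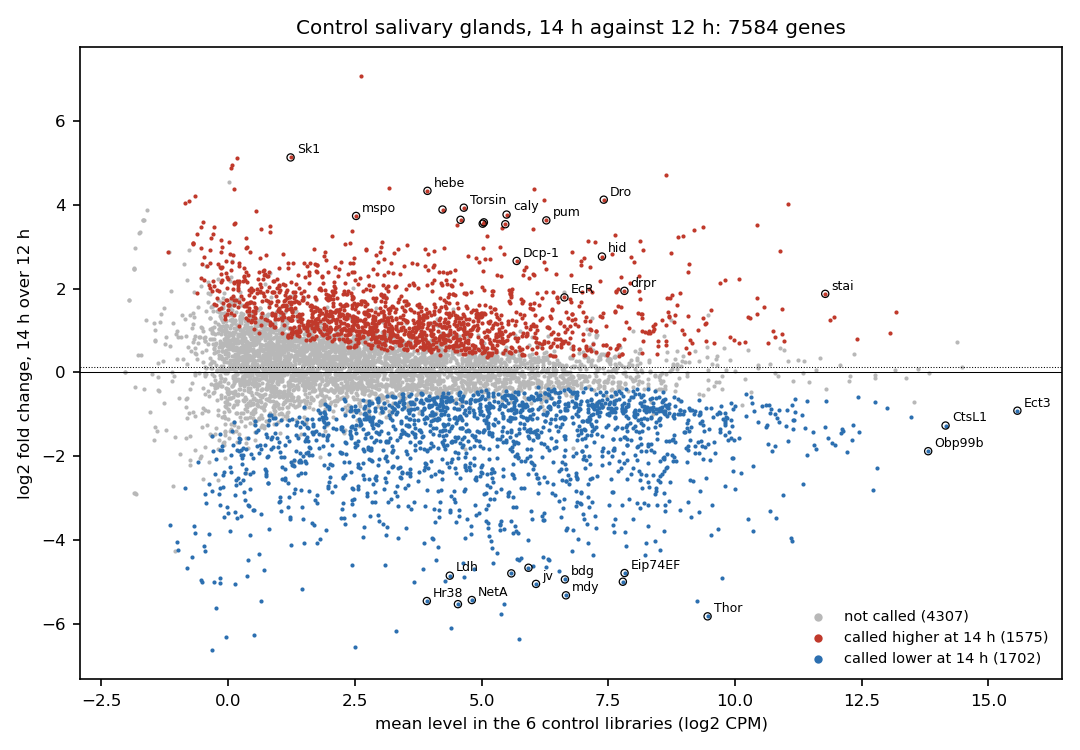
Log2 fold change of 14 h over 12 h control glands against the mean level in the 6 control libraries (log2 CPM), one point for each of 7584 genes. Red points were called higher (1575), blue points lower (1702) and grey points were not called; circles mark genes named in the text and the dotted line is the median of all genes, 0.12.

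The ecdysone regulators, meaning the receptor, the early genes and the nuclear receptors of the cascade, were mostly lower at 14 h. Of 21 tested members 14 fell and 1 rose, with a median log2 fold change of -1.18, or -1.31 relative to all genes. The member that rose was the ecdysone receptor gene itself. EcR (FBgn0000546, chromosome 2R, 6087873 to 6169087, minus strand) had 185.5, 211 and 175 CPM at 14 h, against 78.6, 33.03 and 53.5 CPM at 12 h (log2 fold change 1.79, SE 0.27, edgeR adjusted p = 0.000235). All 14 h libraries were above all 12 h libraries. Its partner usp had 90.2, 102 and 87.4 CPM at 14 h, against 69.03, 85.4 and 90.3 CPM at 12 h, and the groups overlapped (edgeR adjusted p = 0.332).

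The early gene Eip74EF (FBgn0000567, chromosome 3L, 17558672 to 17619325, minus strand), an ETS-domain transcription factor, had 65.3, 41.7 and 35.2 CPM at 14 h, against 463, 1592 and 1869 CPM at 12 h (log2 fold change -4.78, SE 0.46, edgeR adjusted p = 1e-05). The 12 h replicate 1 was the lowest of its group and still above every 14 h library. The zinc-finger gene br, the broad locus of the early response, had 205, 182 and 164 CPM at 14 h, against 362, 1068 and 1391 CPM at 12 h (log2 fold change -2.36, SE 0.37, edgeR adjusted p = 0.000313). E93's own gene, Eip93F, had 776, 865 and 894 CPM at 14 h, against 1175, 1917 and 2078 CPM at 12 h (log2 fold change -1.03, SE 0.20, edgeR adjusted p = 0.00157). All of its 14 h libraries lay below the lowest 12 h library.

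Nuclear receptor genes of the cascade followed. Hr4 had 50.4, 41.6 and 40.5 CPM at 14 h, against 286, 595 and 845 CPM at 12 h (log2 fold change -3.70, SE 0.35, edgeR adjusted p = 9.43e-06). Hr38, a receptor of the NR4A family that can also partner Usp, had 2.08, 2.2 and 2.44 CPM at 14 h, against 56.4, 98.5 and 141 CPM at 12 h (log2 fold change -5.45, SE 0.35, edgeR adjusted p = 1.39e-06), and it stood near 2 CPM in each 14 h library. Hr78 (log2 fold change -1.70, SE 0.22), Hnf4 (-1.77, SE 0.20) and Eip78C (-1.84, SE 0.17) fell as well, each with edgeR adjusted p of 8.05e-05 or less. So did the ecdysone importer gene Oatp74D (-1.95, SE 0.22) and E23 (-1.77, SE 0.21), which encodes an ABC transporter, each with edgeR adjusted p of 5.29e-05 or less.

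Eip75B, an early nuclear receptor gene, had 182, 191 and 146 CPM at 14 h, against 132, 318 and 539 CPM at 12 h. Its groups overlapped through the 12 h replicate 1, and the fall did not pass the test (log2 fold change -0.93, edgeR adjusted p = 0.0559). Without that library it passed, at -1.38 with edgeR adjusted p = 0.000341. The competence factor gene ftz-f1, which is expressed between pulses, was low at both times with 10.4, 9.21 and 7.88 CPM at 14 h, against 8.84, 9.81 and 13.2 CPM at 12 h (edgeR adjusted p = 0.751). Another gene covers 29.4% of its exon length on the same strand. Together, counts of the list made up 0.332%, 0.341% and 0.31% of all counts at 14 h and 0.454%, 0.686% and 0.784% at 12 h.

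Death genes moved in both directions. Of 12 tested activators and inhibitors 3 rose (25%) and 4 fell (33.3%), and of 7 caspases and apoptosome genes 2 rose (28.6%) and 5 fell (71.4%). Over all tested genes 20.8% rose and 22.4% fell, so the shares of rises in both lists were near that of all genes. The median log2 fold change was -0.16 for the first list, or -0.29 relative to all genes, and -0.89 for the second, or -1.02. Scaling by library size alone gave 5 higher and 3 lower in the first list and 2 higher and 4 lower in the second. hid (FBgn0003997, chromosome 3L, 18167745 to 18185641, minus strand), whose product binds and blocks the inhibitors of apoptosis, had 550.4, 668 and 604 CPM at 14 h, against 226, 15.4 and 26.5 CPM at 12 h (log2 fold change 2.76, SE 0.73, edgeR adjusted p = 0.00888). The 12 h replicates 2 and 3 were low and replicate 1 was intermediate, and without replicate 1 the log2 fold change was 4.79. rpr, a neighbouring gene that encodes another such antagonist, had 405, 445 and 615 CPM at 14 h, against 461, 307 and 271 CPM at 12 h with overlapping groups and did not pass (log2 fold change 0.49, edgeR adjusted p = 0.176).

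Both inhibitor of apoptosis genes Diap1 and Diap2 fell. Diap1, which holds caspases in check and is itself removed by Hid and Rpr, had 306, 294 and 307.5 CPM at 14 h, against 619, 1110 and 1329 CPM at 12 h (log2 fold change -1.75, SE 0.24, edgeR adjusted p = 0.000114). Diap2 had 40.4, 46.3 and 39.6 CPM at 14 h, against 155, 593 and 683 CPM at 12 h (log2 fold change -3.50, SE 0.42, edgeR adjusted p = 4.47e-05), and its 14 h libraries lay within a narrow band. Among the Bcl-2 family genes, Buffy had 65, 67.05 and 86.4 CPM at 14 h, against 345, 636 and 606 CPM at 12 h (log2 fold change -2.86, SE 0.24, edgeR adjusted p = 4.43e-06) and Debcl had 17.04, 18.1 and 14.99 CPM at 14 h, against 9.86, 5.05 and 4.84 CPM at 12 h (log2 fold change 1.33, SE 0.25, edgeR adjusted p = 0.00117). In Drosophila Buffy has been described mainly as protective and Debcl as promoting death. Bruce, a large inhibitor of apoptosis, had 80.7, 76.8 and 60.5 CPM at 14 h, against 63.4, 52.8 and 68.5 CPM at 12 h and did not pass (edgeR adjusted p = 0.259).

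Initiator caspase and adaptor genes fell. Dark, the Apaf-1 homologue that assembles the apoptosome, had 120.5, 114 and 139.9 CPM at 14 h, against 544, 1002 and 935 CPM at 12 h (log2 fold change -2.73, SE 0.23, edgeR adjusted p = 4.87e-06), although an antisense gene covers 56.9% of its exon length and the strand setting of the counting is not given in the sources used here. Dronc, the initiator caspase that Dark activates, had 1361, 1391 and 1380 CPM at 14 h, against 2050, 2728 and 2898 CPM at 12 h (log2 fold change -0.89, SE 0.17, edgeR adjusted p = 0.000994). Strica (log2 fold change -2.58, SE 0.25) and Dredd (-1.37, SE 0.20), 2 further caspases with long prodomains, fell too, with edgeR adjusted p of 1.27e-05 for Strica and 0.000179 for Dredd.

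Of the effector caspase genes in the list, Dcp-1 (FBgn0010501, chromosome 2R, 23551313 to 23553547, plus strand) rose, with 149.6, 160.4 and 167 CPM at 14 h, against 57.1, 9.66 and 8.13 CPM at 12 h (log2 fold change 2.66, SE 0.56, edgeR adjusted p = 0.00233). As for hid, the 12 h replicate 1 was intermediate, and the log2 fold change without it was 4.09. Drice, the other main effector, had 122.5, 136 and 126 CPM at 14 h, against 163, 183 and 202.5 CPM at 12 h. Its small fall was called (log2 fold change -0.51, edgeR adjusted p = 0.0191), but with library size alone the value was 0.02. Leaving out a control library also ended the call in 4 of 6 cases, with edgeR adjusted p of 0.051 without the 12 h replicate 2, 0.0869 without the 12 h replicate 3, 0.0737 without the 14 h replicate 1 and 0.0613 without the 14 h replicate 3. Acn, which encodes a nuclear protein cut by caspases in other species, rose by 1.32 on the log2 scale (SE 0.29, edgeR adjusted p = 0.00314).

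**Figure D3:**
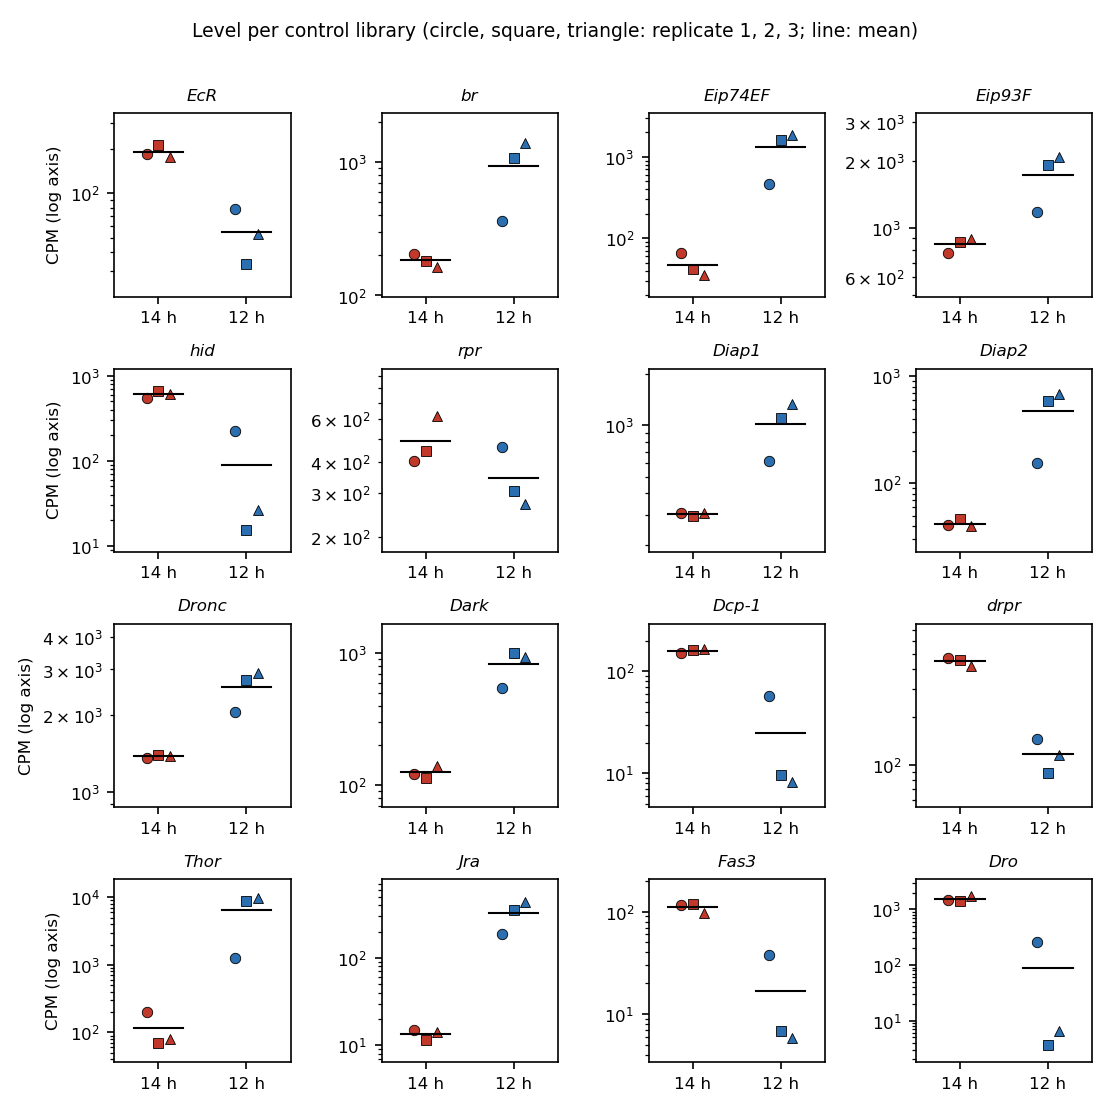
Level of 16 genes in each control library (CPM, log axis), 14 h left and 12 h right, with circles, squares and triangles for replicates 1, 2 and 3 and a line at the mean. In the 12 h group the circle (replicate 1) lies toward the 14 h level for genes that rose, such as hid, Dcp-1 and Dro, and for genes that fell, such as Eip74EF, Diap2 and Thor.

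Engulfment genes, known from the clearance of dying cells, were split as well, with 4 of 12 tested members higher (33.3%) and 5 lower (41.7%). Over all tested genes these shares were 20.8% and 22.4%. The median of the list was 0.18 relative to all genes, and 7 were higher and 3 lower with library size alone. The receptor gene drpr, which is needed inside dying gland cells for their autophagy, had 471, 454 and 417 CPM at 14 h, against 145, 88.1 and 116 CPM at 12 h (log2 fold change 1.95, SE 0.28, edgeR adjusted p = 0.000157). All 14 h libraries were above all 12 h libraries. ced-6, which encodes an adaptor of that receptor, had 90.96, 84.7 and 90.6 CPM at 14 h, against 215.5, 475 and 502 CPM at 12 h (log2 fold change -2.16, SE 0.29, edgeR adjusted p = 0.000112), so receptor and adaptor transcripts moved in opposite directions. Src42A, a kinase gene, fell with a log2 fold change of -2.28, SE 0.27. mbc, which encodes a Rac exchange factor, fell with -3.13, SE 0.21; edgeR adjusted p were 4.2e-05 for Src42A and 1.72e-06 for mbc.

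In the autophagy and lysosome lists more genes were called lower than higher with TMM scaling, and the reverse with library size alone. Of 33 tested autophagy genes 5 rose (15.2%) and 11 fell (33.3%), against 20.8% and 22.4% of all tested genes. Their median log2 fold change was -0.26, or -0.38 relative to all genes. With library size alone 13 rose and 7 fell. Atg13, which encodes a subunit of the initiating Atg1 kinase complex, had 273, 288.5 and 297 CPM at 14 h, against 849.9, 1055 and 1189 CPM at 12 h (log2 fold change -1.85, SE 0.18, edgeR adjusted p = 1e-05). Atg4b, a protease that processes Atg8, had 110.4, 108 and 128 CPM at 14 h, against 546, 463 and 674 CPM at 12 h (log2 fold change -2.28, SE 0.20, edgeR adjusted p = 5.15e-06). Syx17, the SNARE of autophagosome-lysosome fusion, had 43.6, 44.1 and 50.4 CPM at 14 h, against 151, 245.5 and 208 CPM at 12 h (log2 fold change -2.13, SE 0.25, edgeR adjusted p = 3.72e-05). Atg18a fell by -1.01 (SE 0.17, edgeR adjusted p = 0.000443). The 5 rises were not stable, and 1 to 3 were called when any one of the 12 h replicates 2 and 3 or the 14 h libraries was left out.

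Of 22 lysosomal genes 4 rose (18.2%) and 9 fell (40.9%), against 20.8% and 22.4% of all tested genes. The median was -0.40 relative to all genes, and 8 rose and 6 fell with library size alone. Their counts summed to 2.37%, 2.27% and 2.18% of each 14 h library, against 3.5%, 3.04% and 3.01% of each 12 h library. The cathepsin L gene CtsL1 had 12017, 11638 and 11638 CPM at 14 h, against 27761, 27926 and 29262 CPM at 12 h (log2 fold change -1.27, SE 0.19, edgeR adjusted p = 0.00025). The cathepsin B gene CtsB had 1343, 1288 and 1347 CPM at 14 h, against 2776, 3272 and 3585 CPM at 12 h (log2 fold change -1.28, SE 0.18, edgeR adjusted p = 0.000136). Trpml, a calcium channel of the lysosome membrane, was close to the level of 3 counts at 14 h, with 1.19, 0.209 and 0.888 CPM at 14 h, against 7.04, 16.7 and 15.9 CPM at 12 h (log2 fold change -4.08, SE 0.48, edgeR adjusted p = 3.81e-05). Cln3 had 1.68, 1.36 and 1.22 CPM at 14 h, against 6.92, 21.6 and 19.4 CPM at 12 h (log2 fold change -3.47, SE 0.41, edgeR adjusted p = 4.33e-05). Of 16 V-ATPase subunit genes, which acidify the lysosome, 2 rose and 6 fell, with a median of -0.66 relative to all genes, against 5 and 3 with library size alone. Vha100-2 fell by -1.55 (SE 0.23, edgeR adjusted p = 0.000248), and 10 subunit genes fell without the 12 h replicate 1.

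Secreted products that are typical of the prepupal gland fell together. The late 71E genes, a cluster of ecdysone-induced genes that encode small secreted proteins, were lower in 10 of 11 tested members. Their median log2 fold change was -2.41, or -2.53 relative to all genes. Summed, they made up 0.358%, 0.296% and 0.577% of counts at 14 h and 0.912%, 2.92% and 2.46% at 12 h. Eig71Ea (FBgn0004588, chromosome 3L, 15649126 to 15649661, minus strand) had 452, 378 and 1087 CPM at 14 h, against 3692, 14461 and 12855 CPM at 12 h (log2 fold change -4.02, SE 0.62, edgeR adjusted p = 0.000296), and it was among the 6 called falls with the largest difference in CPM. Without the 14 h replicate 3, its highest 14 h library, the log2 fold change was -4.64. Eig71Eb had 371, 318 and 1116 CPM at 14 h, against 2610, 8230 and 7088 CPM at 12 h (log2 fold change -3.31, SE 0.60, edgeR adjusted p = 0.000878; -4.11 without the 14 h replicate 3). Leaving out the 14 h replicate 2 left 6 calls in the list, and leaving out each other control library left 7 to 11.

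The glue genes, expressed earlier in the larval gland, were already low, and their summed counts were 0.0427% of a library or less. Of 9 tested members 4 fell and 0 rose. Sgs3 had 6.74, 7.74 and 8.22 CPM at 14 h, against 11.9, 21.2 and 21.3 CPM at 12 h (log2 fold change -1.26, SE 0.26, edgeR adjusted p = 0.00205). Sgs5bis had 51.6, 27.6 and 57.9 CPM at 14 h, against 124, 216 and 490.4 CPM at 12 h (log2 fold change -2.60, SE 0.61, edgeR adjusted p = 0.00449; -1.92 without the 12 h replicate 3, its highest library). Other abundant secreted products fell. Obp99b (FBgn0039685, chromosome 3R, 29716254 to 29716896, minus strand), an odorant-binding protein gene, had 6676, 7256 and 8693 CPM at 14 h, against 24398, 30516 and 28308 CPM at 12 h (log2 fold change -1.88, SE 0.23, edgeR adjusted p = 5.55e-05). Ect3, which encodes a beta-galactosidase, had 38433, 35540 and 32952 CPM at 14 h, against 59271, 65996 and 76103 CPM at 12 h (log2 fold change -0.91, SE 0.22, edgeR adjusted p = 0.00519). With library size alone the change of Ect3 was -0.38 and did not pass (edgeR adjusted p = 0.0945).

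Levels of different genes can be compared only per length, and for this counts were divided by exon length and scaled to 1e+06 per library (TPM). On that scale the cecropin gene CecC was the highest of all protein-coding genes at 14 h, with 132608 ± 9279 TPM at 14 h and 56790 ± 28616 TPM at 12 h (SD, n = 3 each). Cecropins are short antibacterial peptides, and reads of their near-identical copies may be split by the counting. In CPM, CecC had 24692, 25973 and 33967 CPM at 14 h, against 23878, 13921 and 13456 CPM at 12 h and did not pass (log2 fold change 0.72, edgeR adjusted p = 0.0602), but it was called without the 12 h replicate 1 (0.98, edgeR adjusted p = 0.0107). Obp99b ranked first at 12 h, with 23106 ± 1030 TPM at 14 h and 57360 ± 2493 TPM at 12 h. CG7860, which ranked 10 at 14 h and 207 at 12 h, had 9397, 10304 and 8210 CPM at 14 h, against 1060, 279 and 386 CPM at 12 h (log2 fold change 4.02, SE 0.46, edgeR adjusted p = 3.48e-05; 4.74 without the 12 h replicate 1).

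The 12 largest falls were taken from called genes with a gene symbol that is not provisional, at least 10 CPM and no overlap between the times, and lay between -5.82 and -4.66 on the log2 scale. The largest was Thor (FBgn0261560, chromosome 2L, 3478434 to 3479612, plus strand), which encodes 4E-BP, the translation repressor controlled by TOR. Thor had 199.9, 69.1 and 80.6 CPM at 14 h, against 1282, 8797 and 9654 CPM at 12 h (log2 fold change -5.82, SE 0.73, edgeR adjusted p = 6.26e-05). The 14 h replicate 1 was the highest of its group, and without it the log2 fold change was -6.46. mdy, a diacylglycerol acyltransferase gene of triglyceride synthesis, had 18.8, 13.5 and 19.3 CPM at 14 h, against 265, 872 and 923 CPM at 12 h (log2 fold change -5.32, SE 0.43, edgeR adjusted p = 3.92e-06). NetA, a netrin gene, had 4.06, 4.08 and 4.44 CPM at 14 h, against 139.5, 166 and 239 CPM at 12 h (log2 fold change -5.43, SE 0.48, edgeR adjusted p = 6.14e-06), with all 3 of its 12 h libraries high.

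The replication kinase gene Cdc7 had 4.06, 3.98 and 3.11 CPM at 14 h, against 45.3, 226.5 and 246 CPM at 12 h (log2 fold change -5.53, SE 0.62, edgeR adjusted p = 2.83e-05). Mgat3, a gene of N-glycan branching enzymes, had 39.1, 37.5 and 43.5 CPM at 14 h, against 761, 1537 and 1530 CPM at 12 h (log2 fold change -4.99, SE 0.35, edgeR adjusted p = 1.99e-06). S6kII, the ribosomal S6 kinase of the RSK family, had 9.12, 8.996 and 9.11 CPM at 14 h, against 246.5, 199.5 and 309.9 CPM at 12 h (log2 fold change -4.79, SE 0.30, edgeR adjusted p = 1.39e-06), and 25.5% of its exon length overlaps another gene on the opposite strand. Ldh, lactate dehydrogenase, had 5.45, 3.14 and 3.11 CPM at 14 h, against 72.4, 164 and 103 CPM at 12 h (log2 fold change -4.85, SE 0.39, edgeR adjusted p = 3.92e-06). The remaining members of the 12 were Hr38 and Eip74EF, described above, with jv (-5.04, SE 0.51), bdg (-4.94, SE 0.54) and pcs (-4.66, SE 0.43), each with edgeR adjusted p of 2.52e-05 or less.

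The 12 largest rises by the same rule ran from 3.53 to 5.13, and leaving out the 12 h replicate 1 enlarged each of them by over 1.5 times, to between 4.72 and 8.49. hebe (FBgn0033448, chromosome 2R, 9828104 to 9836642, minus strand) had 70.3, 68.8 and 74.7 CPM at 14 h, against 5.89, 1.44 and 3.12 CPM at 12 h (log2 fold change 4.33, SE 0.36, edgeR adjusted p = 4.43e-06; 4.92 without the 12 h replicate 1). pum, the gene of the translational repressor Pumilio, had 329, 349 and 272 CPM at 14 h, against 53.4, 8.8 and 14.2 CPM at 12 h (log2 fold change 3.63, SE 0.56, edgeR adjusted p = 0.000297; 4.72 without it). caly, which encodes the deubiquitinase of a Polycomb-group complex, had 256, 227 and 174 CPM at 14 h, against 38.9, 3.9 and 4.84 CPM at 12 h (log2 fold change 3.76, SE 0.67, edgeR adjusted p = 0.000766; 5.58 without it). Torsin, an ATPase gene of the endoplasmic reticulum and nuclear envelope, had 117, 112 and 147 CPM at 14 h, against 19.1, 3.46 and 1.56 CPM at 12 h (log2 fold change 3.93, SE 0.63, edgeR adjusted p = 0.000385; 5.54 without it).

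Cbp80, the large subunit of the nuclear cap-binding complex, lies next to Torsin on chromosome X and had 143, 157 and 129.8 CPM at 14 h, against 29.1, 3.17 and 3.81 CPM at 12 h (log2 fold change 3.55, SE 0.64, edgeR adjusted p = 0.000866; 5.29 without the 12 h replicate 1). Torsin and Cbp80 belong to a run of 5 neighbouring tested genes that all rose (X, 4645127 to 4666700), together with HLH4C, mRpL30 and CG3009. The sphingosine kinase gene Sk1 had the largest rise, from few counts, with 9.61, 16.7 and 10.2 CPM at 14 h, against 0.768, 0.144 and 0 CPM at 12 h (log2 fold change 5.13, SE 1.17, edgeR adjusted p = 0.00381; 6.98 without the 12 h replicate 1). The potassium channel gene KCNQ (3.64, SE 0.60; 27.4% of its exon length overlapped on the opposite strand), mspo (3.73, SE 0.73) and jef (3.53, SE 0.97) complete the set with 3 antimicrobial peptide genes, and edgeR adjusted p of these 3 were 0.000443 for KCNQ, 0.00146 for mspo and 0.0111 for jef. Without the 12 h replicate 1 the values were 5.10 for KCNQ, 5.93 for mspo and 6.46 for jef.

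By difference in CPM, the largest rises among called genes were CG13748, CG7860, CG10516, CG13907, CG10365 and stai. stai, the stathmin gene, whose product destabilises microtubules, had 6586, 7295 and 7554 CPM at 14 h, against 3314, 1106 and 1429 CPM at 12 h (log2 fold change 1.87, SE 0.33, edgeR adjusted p = 0.000789). CG10516 had 6971, 7524 and 6467 CPM at 14 h, against 1612, 104 and 119 CPM at 12 h (log2 fold change 3.51, SE 0.87, edgeR adjusted p = 0.00606; 5.90 without the 12 h replicate 1). CG10365 had 5831, 6297 and 6817 CPM at 14 h, against 1943, 304 and 312.5 CPM at 12 h (log2 fold change 2.89, SE 0.61, edgeR adjusted p = 0.00228; 4.29 without it). CG13907 had 12442, 12675 and 10620 CPM at 14 h, against 8176, 4596 and 5952 CPM at 12 h (log2 fold change 0.93, SE 0.25, edgeR adjusted p = 0.00873), and the call was lost without the 12 h replicate 2 (log2 fold change 0.73, edgeR adjusted p = 0.0542). CG13748 was near the threshold (log2 fold change 1.44, SE 0.53, edgeR adjusted p = 0.0438; 2.18 without the 12 h replicate 1), and leaving out any other control library ended its call (edgeR adjusted p = 0.0846 to 0.147). The largest called falls in CPM were Ect3, Obp99b, CtsL1, CG42713 (-2.80, SE 0.28), CG42798 (-2.28, SE 0.37) and Eig71Ea. The edgeR adjusted p were 1.43e-05 for CG42713 and 0.000399 for CG42798.

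Of 17 tested antimicrobial peptide genes 4 rose (23.5%) and 2 fell (11.8%), with a median of 0.61, or 0.49 relative to all genes. Over all tested genes 20.8% rose and 22.4% fell, so the share of rises was near that of all genes. The cecropin genes CecA1 (log2 fold change -0.32), CecA2 (-0.02) and CecB (0.05) did not pass. Their edgeR adjusted p were 0.401, 0.96 and 0.909. Dro, the drosocin gene (FBgn0010388, chromosome 2R, 14745961 to 14746714, plus strand), had 1501, 1440 and 1713 CPM at 14 h, against 257, 3.61 and 6.4 CPM at 12 h (log2 fold change 4.12, SE 1.27, edgeR adjusted p = 0.0195). The 12 h replicates 2 and 3 were low, replicate 1 was intermediate, and without replicate 1 the log2 fold change was 8.22. Its neighbours AttA and AttB, 2 attacin genes of nearly the same sequence, followed the same order. AttA had 249.8, 218 and 292 CPM at 14 h, against 60.7, 0.577 and 1.38 CPM at 12 h and AttB had 149, 137 and 175 CPM at 14 h, against 29.6, 0.288 and 0.519 CPM at 12 h, with log2 fold changes of 3.58 (SE 1.13, edgeR adjusted p = 0.0224; 7.97 without the 12 h replicate 1) and 3.89 (SE 1.08, edgeR adjusted p = 0.0115; 8.49 without it).

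The 3 peptide genes ended a run of 6 neighbouring tested genes that all rose (2R, 14671396 to 14750165), after mspo, CG43428 and jef. In a fit of the 6 control libraries alone the rises of Dro and AttA did not pass, and AttA was also lost without the 12 h replicate 3 (edgeR adjusted p = 0.0538) and without the 14 h replicate 3 (edgeR adjusted p = 0.052). The drosomycin-like gene Drsl6 went the other way with 667, 511 and 850.1 CPM at 14 h, against 985, 11339 and 10352 CPM at 12 h (log2 fold change -3.48, SE 0.75, edgeR adjusted p = 0.00257; -4.07 without the 12 h replicate 1). Drsl1 fell too, with 105, 89.6 and 113 CPM at 14 h, against 266, 415 and 438 CPM at 12 h (log2 fold change -1.86, SE 0.27, edgeR adjusted p = 0.000206).

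Of 24 tested peptidoglycan receptor and NF-kappaB pathway genes 2 rose and 10 fell, with a median of -0.33, or -0.45 relative to all genes. Scaled by library size alone, 4 rose and 5 fell. Myd88, the adaptor of the Toll receptor, had 64.4, 55.9 and 54.96 CPM at 14 h, against 304, 839.5 and 1030 CPM at 12 h (log2 fold change -3.63, SE 0.37, edgeR adjusted p = 1.44e-05). Dif, an NF-kappaB factor, had 459.9, 440.2 and 441.5 CPM at 14 h, against 1817, 2539 and 2438 CPM at 12 h (log2 fold change -2.34, SE 0.19, edgeR adjusted p = 4.38e-06). The Toll ligand gene spz had 20.4, 22.1 and 21.4 CPM at 14 h, against 68.3, 147 and 153 CPM at 12 h (log2 fold change -2.53, SE 0.29, edgeR adjusted p = 3.1e-05). PGRP-LF, a receptor-like inhibitor of the Imd pathway, rose with 31.01, 30.1 and 31.9 CPM at 14 h, against 7.17, 6.2 and 8.48 CPM at 12 h (log2 fold change 2.09, SE 0.25, edgeR adjusted p = 4.67e-05). On the opposite strand 44.4% of its exon length is overlapped. PGRP-LF (3L, 9349609 to 9351489) overlaps UGP (9350867 to 9358935), which also rose (log2 fold change 2.14). Without the strand setting, the rises of PGRP-LF and UGP cannot be taken as separate.

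Of 12 JNK pathway genes 3 rose (25%) and 5 fell (41.7%), against 20.8% and 22.4% of all tested genes. The median was -0.36 relative to all genes. Jra, the fly Jun, had 14.9, 11.5 and 14.1 CPM at 14 h, against 189, 357 and 441 CPM at 12 h (log2 fold change -4.61, SE 0.33, edgeR adjusted p = 2.17e-06), a fall shared by all 3 libraries. The JNK phosphatase and target gene puc had 129, 127 and 117 CPM at 14 h, against 386, 726 and 795 CPM at 12 h (log2 fold change -2.35, SE 0.25, edgeR adjusted p = 1.89e-05). Mmp1, a matrix metalloproteinase gene that JNK can induce, had 2146, 2144 and 2207 CPM at 14 h, against 8820, 5902 and 6287 CPM at 12 h (log2 fold change -1.69, SE 0.22, edgeR adjusted p = 7.59e-05), and here the 12 h replicate 1 was the highest library. The JNK kinase cascade gene msn fell by -1.13 (SE 0.19, edgeR adjusted p = 0.000524).

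Of 20 tested heat shock and chaperone genes 1 rose and 11 fell, with a median of -1.48, or -1.60 relative to all genes. Hsf, the heat shock transcription factor, had 40.1, 36.2 and 45.2 CPM at 14 h, against 213, 591 and 297 CPM at 12 h (log2 fold change -3.18, SE 0.32, edgeR adjusted p = 1.33e-05). DnaJ-1, an Hsp40 co-chaperone gene, had 19.7, 14.8 and 13.7 CPM at 14 h, against 106, 365 and 296 CPM at 12 h (log2 fold change -3.99, SE 0.43, edgeR adjusted p = 2.32e-05). The small heat shock gene Hsp27, an ecdysone target, had 225, 151 and 149.9 CPM at 14 h, against 658, 1247 and 1301 CPM at 12 h (log2 fold change -2.61, SE 0.28, edgeR adjusted p = 2.28e-05), and its neighbour Hsp26 fell by -2.21 (SE 0.25, edgeR adjusted p = 3.28e-05). Not all small heat shock genes fell. Hsp67Bc rose, with 2643, 2528 and 2662 CPM at 14 h, against 1039, 835.2 and 794.1 CPM at 12 h (log2 fold change 1.55, SE 0.20, edgeR adjusted p = 9.03e-05). The summed share of the list was 0.502%, 0.452% and 0.459% of counts at 14 h and 0.358%, 0.451% and 0.343% at 12 h, so the sum did not follow the calls. Copies of Hsp70 are near-identical and their counts are uncertain. Of 25 genes of the unfolded protein response and folding in the endoplasmic reticulum 1 rose and 10 fell, with a median of -0.46 relative to all genes, against 10 and 9 with library size alone. The fall of Herp is an example, with 11.99, 8.47 and 12.99 CPM at 14 h, against 68.01, 130.1 and 122.5 CPM at 12 h (log2 fold change -3.26, SE 0.29, edgeR adjusted p = 6.77e-06).

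Most cytoplasmic ribosomal protein genes fell by modest amounts with TMM scaling. Of 81 cytoplasmic ribosomal protein genes 77 fell and 0 rose, with a median of -0.88, or -1.01 relative to all genes, and in 76 every 14 h library was below every 12 h library. With library size alone the median was -0.34 and 26 fell. RpLP0 had 143, 132 and 138 CPM at 14 h, against 206, 268 and 293 CPM at 12 h (log2 fold change -0.89, SE 0.15, edgeR adjusted p = 0.000652). RpS3A had 398, 379 and 485 CPM at 14 h, against 743, 1415 and 1182 CPM at 12 h (log2 fold change -1.40, SE 0.23, edgeR adjusted p = 0.000464). Their summed share of counts was 2.46%, 2.34% and 2.68% at 14 h and 2.75%, 3.67% and 3.25% at 12 h. Of 35 translation initiation factor genes 2 rose and 15 fell, with a median of -0.44 relative to all genes, against 9 and 9 with library size alone. Among them eIF4A, the RNA helicase of initiation, had 1393, 1395 and 1440 CPM at 14 h, against 3855, 6084 and 6579 CPM at 12 h (log2 fold change -1.97, SE 0.21, edgeR adjusted p = 2.12e-05).

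TOR pathway genes moved both ways, with 6 of 26 insulin and TOR genes higher (23.1%) and 10 lower (38.5%), against 20.8% and 22.4% of all tested genes. Their median was -0.31 relative to all genes, and 10 were higher and 7 lower with library size alone. mTor, the kinase at the centre of the pathway, had 27.1, 23.9 and 20.5 CPM at 14 h, against 9.86, 6.64 and 7.61 CPM at 12 h (log2 fold change 1.57, SE 0.20, edgeR adjusted p = 6.82e-05). scyl, which encodes an inhibitor of TOR, had 435, 515 and 538.5 CPM at 14 h, against 1422, 2565 and 2098 CPM at 12 h (log2 fold change -2.03, SE 0.23, edgeR adjusted p = 3.07e-05). Pdk1, a kinase of the insulin branch, had 14.8, 17.6 and 16.99 CPM at 14 h, against 74.2, 88.3 and 81.2 CPM at 12 h (log2 fold change -2.30, SE 0.24, edgeR adjusted p = 1.91e-05). Mitochondrial ribosomal protein genes differed from the cytoplasmic ones in their calls. Of 36 tested members 7 rose (19.4%, near the share of all tested genes) and 1 fell (2.78%), with a median of 0.56, or 0.44 relative to all genes. Among those that rose, mRpL30 had 22.8, 29.4 and 27.2 CPM at 14 h, against 9.48, 4.62 and 4.5 CPM at 12 h (log2 fold change 2.08, SE 0.28, edgeR adjusted p = 0.000122).

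Among the 31 tested proteasome subunits 15 rose and 0 fell, with a median of 0.57, or 0.45 relative to all genes, and their share of counts was 0.22%, 0.215% and 0.194% at 14 h, against 0.14%, 0.103% and 0.0922% at 12 h. The lid subunit gene Rpn11, a deubiquitinase, had 46.4, 48.95 and 45.1 CPM at 14 h, against 24.3, 20.2 and 15.8 CPM at 12 h (log2 fold change 1.22, SE 0.17, edgeR adjusted p = 0.000172). Rpn9 had 36.7, 32.6 and 35.1 CPM at 14 h, against 19.98, 8.8 and 6.92 CPM at 12 h (log2 fold change 1.53, SE 0.31, edgeR adjusted p = 0.00174). Of the core, Prosalpha5 had 116, 118 and 118 CPM at 14 h, against 75.95, 47.03 and 43.6 CPM at 12 h (log2 fold change 1.08, SE 0.24, edgeR adjusted p = 0.00314). Without the 12 h replicate 3, 9 subunits were called, and with library size alone 29. Of 20 RNA polymerase subunit genes 5 rose (25%) and 0 fell, against 20.8% and 22.4% of all tested genes, with a median of 0.27 relative to all genes. Among those that rose was Polr2B, the second-largest subunit of polymerase II, with 27.1, 22.2 and 23.8 CPM at 14 h, against 11.4, 7.36 and 4.5 CPM at 12 h (log2 fold change 1.63, SE 0.31, edgeR adjusted p = 0.00107).

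**Figure D4:**
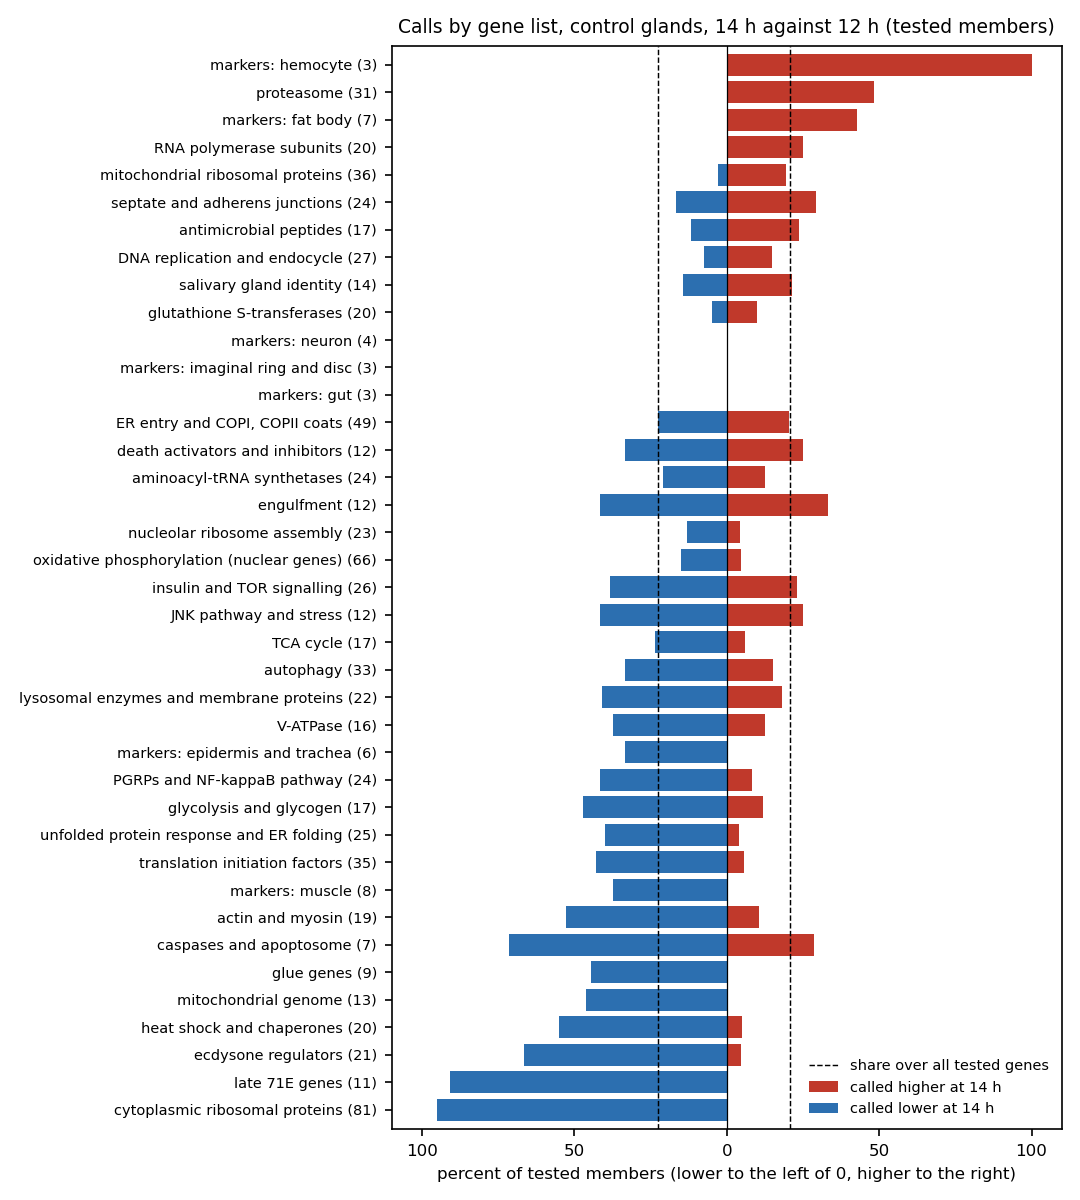
Percent of tested members called higher (red, right of 0) and lower (blue, left of 0) at 14 h in 39 gene lists, with the number of tested members in brackets and dashed lines at the shares over all tested genes (20.8% higher, 22.4% lower). Cytoplasmic ribosomal proteins (77 of 81 lower), late 71E genes (10 of 11 lower) and proteasome genes (15 of 31 higher) lie far from those lines.

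Sugar and energy metabolism shifted in part. Of 17 genes of glycolysis and glycogen 2 rose and 8 fell, with a median of -0.65, or -0.77 relative to all genes. Besides Ldh, Gapdh2 fell with 15.7, 14.5 and 15.5 CPM at 14 h, against 43.4, 102 and 98.8 CPM at 12 h (log2 fold change -2.42, SE 0.29, edgeR adjusted p = 4.2e-05). The aldolase gene Ald1 had 5.85, 5.02 and 4.77 CPM at 14 h, against 13.1, 12.8 and 17.1 CPM at 12 h (log2 fold change -1.45, SE 0.18, edgeR adjusted p = 6.07e-05). UGP, the gene of the enzyme that makes UDP-glucose, rose with 9.41, 10.04 and 9.77 CPM at 14 h, against 2.18, 2.02 and 2.42 CPM at 12 h (log2 fold change 2.14, SE 0.23, edgeR adjusted p = 2.12e-05), with 21.4% of its exon length overlapped on the opposite strand. UGP overlaps PGRP-LF, described above with a log2 fold change of 2.09, so reads of the shared stretch could enter both counts. The list as a whole summed to 1283, 1313 and 1213 CPM at 14 h and 1129, 781.7 and 911.8 CPM at 12 h, so its summed level and its median differ in direction. Of 66 nuclear genes of oxidative phosphorylation 3 rose (4.55%) and 10 fell (15.2%), against 20.8% and 22.4% of all tested genes. The median was -0.42 relative to all genes. Leaving out single libraries gave 4 to 20 falls, with 20 without the 12 h replicate 1, 4 without the 12 h replicate 2 or 3 and 6 without the 14 h replicate 1 or 2. Under library size alone, 14 rose and 1 fell. Of the 13 protein-coding genes of the mitochondrial genome 6 fell and 0 rose, with a median of -1.0 on the log2 scale. That count was 1 to 10 when single libraries were left out, and 1 with library size alone.

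Of 17 genes of the TCA cycle 1 rose (5.88%) and 4 fell (23.5%), against 20.8% and 22.4% of all tested genes. Their median was -0.27 relative to all genes, and 3 rose and 1 fell with library size alone. Of 49 genes of entry into the endoplasmic reticulum and of vesicle coats 10 rose (20.4%) and 11 fell (22.4%). These shares were near those of all tested genes. The median was -0.18 relative to all genes, and 22 rose and 3 fell with library size alone. Of 24 aminoacyl-tRNA synthetase genes 3 rose (12.5%) and 5 fell (20.8%), against 6 and 2 with library size alone. Their summed counts were 774.3, 766.7 and 840.9 CPM at 14 h and 725.8, 359.8 and 348 CPM at 12 h. Of 27 genes of DNA replication and the endocycle 4 rose (14.8%) and 2 fell (7.41%). Of 23 nucleolar genes of ribosome assembly 1 rose (4.35%) and 3 fell (13%), and of 20 glutathione S-transferase genes 2 rose (10%) and 1 fell (5%).

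Of 19 actin and myosin genes 2 rose and 10 fell, with a median of -0.61 relative to all genes, against 6 and 5 with library size alone. RhoGEF2, which activates Rho1 and thereby myosin, had 112, 103 and 97.6 CPM at 14 h, against 486, 979.9 and 1225 CPM at 12 h (log2 fold change -3.11, SE 0.29, edgeR adjusted p = 8.65e-06), with 24.7% of its exon length overlapped on the opposite strand. sqh, the regulatory light chain of myosin II, had 293, 289 and 394 CPM at 14 h, against 668, 1115 and 1178 CPM at 12 h (log2 fold change -1.60, SE 0.22, edgeR adjusted p = 0.000122). The formin gene dia rose with 40.2, 42.7 and 40.8 CPM at 14 h, against 11.9, 3.75 and 5.71 CPM at 12 h (log2 fold change 2.52, SE 0.42, edgeR adjusted p = 0.000528). Of 24 septate and adherens junction genes 7 rose (29.2%) and 4 fell (16.7%), against 20.8% and 22.4% of all tested genes. The median was 0.26 relative to all genes, and 18 rose and 1 fell with library size alone. Their summed counts were 0.412%, 0.418% and 0.337% of libraries at 14 h and 0.233%, 0.131% and 0.147% at 12 h. Fas3, a homophilic adhesion molecule, had 116, 119 and 96.6 CPM at 14 h, against 37.4, 6.78 and 5.88 CPM at 12 h (log2 fold change 2.71, SE 0.56, edgeR adjusted p = 0.00205; 4.05 without the 12 h replicate 1). The apical polarity gene crb fell with 171, 183 and 159 CPM at 14 h, against 560.2, 563 and 715 CPM at 12 h (log2 fold change -1.84, SE 0.22, edgeR adjusted p = 4.2e-05).

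Of 17 genes of salivary gland identity 14 passed the filter and 2 had 0 counts in all 6 control libraries. Among the 14 tested, 3 rose (21.4%) and 2 fell (14.3%), against 20.8% and 22.4% of all tested genes. The median was 0.12, or -0.01 relative to all genes. CrebA, a secretory pathway regulator, had 70.7, 74.2 and 58.9 CPM at 14 h, against 26.9, 10.7 and 14.2 CPM at 12 h (log2 fold change 1.97, SE 0.31, edgeR adjusted p = 0.000321). fkh had 6.64, 5.65 and 6.33 CPM at 14 h, against 3.84, 3.03 and 2.08 CPM at 12 h and did not pass (log2 fold change 1.04, edgeR adjusted p = 0.0534), although it was called in the 6 control libraries alone (edgeR adjusted p = 0.0175). sage, a gland-specific bHLH factor, had 96.3, 118 and 99.7 CPM at 14 h, against 153, 32.2 and 37.5 CPM at 12 h, with the 12 h replicate 1 above all other libraries, and did not pass (log2 fold change 0.49, edgeR adjusted p = 0.453). Without that replicate sage was called higher (1.52, edgeR adjusted p = 0.00169). PH4alphaSG1 had 1.98, 1.15 and 2.44 CPM at 14 h, against 3.46, 5.77 and 2.94 CPM at 12 h (log2 fold change -1.13, edgeR adjusted p = 0.0855), and it too was called in the 6 control libraries alone (edgeR adjusted p = 0.0484).

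Markers of other tissues were low but not absent, and some moved with time. The 8 fat body markers summed to 510.3, 547 and 499 CPM at 14 h and 211, 154 and 220 CPM at 12 h, and 3 of the 7 tested rose. The larval serum protein gene Lsp2 had 267, 303 and 279.9 CPM at 14 h, against 78.5, 42.7 and 93.5 CPM at 12 h (log2 fold change 1.99, SE 0.29, edgeR adjusted p = 0.000204), with 84.6% of its exon length overlapped on the opposite strand. apolpp, the lipoprotein precursor of fat body, had 70.7, 89.4 and 93.2 CPM at 14 h, against 23.2, 23.9 and 33.7 CPM at 12 h (log2 fold change 1.65, SE 0.25, edgeR adjusted p = 0.000287). The hemocyte markers summed to 16.1, 16.1 and 12.4 CPM at 14 h and 6.28, 5.63 and 4.85 CPM at 12 h, and all 3 of the tested members rose. The part of fat body or blood cell RNA in the rises reported here, including those of the antimicrobial peptide genes that both tissues also express, was not tested.

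Epidermal and tracheal markers summed to 46.9, 61.1 and 36.2 CPM at 14 h and 189, 122 and 59.9 CPM at 12 h, and 2 of 6 fell, among them serp with 11.5, 14.96 and 11.99 CPM at 14 h, against 66.1, 52.2 and 36.7 CPM at 12 h (log2 fold change -2.01, SE 0.28, edgeR adjusted p = 0.000124). Muscle markers summed to 33.7, 25.7 and 21.3 CPM at 14 h and 29.6, 65.1 and 41.2 CPM at 12 h, and 3 of 8 fell. Neuron, imaginal and gut markers stayed at or below 16.9 CPM in sum in every control library, and 1 neuron and 1 imaginal marker were called higher without the 12 h replicate 1, against 4 and 1 with library size alone. By neuron markers the 12 h replicate 1 was again closest to 14 h, at 9.86 CPM against 2.31 and 3.81 CPM in its partners.

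**Figure D5:**
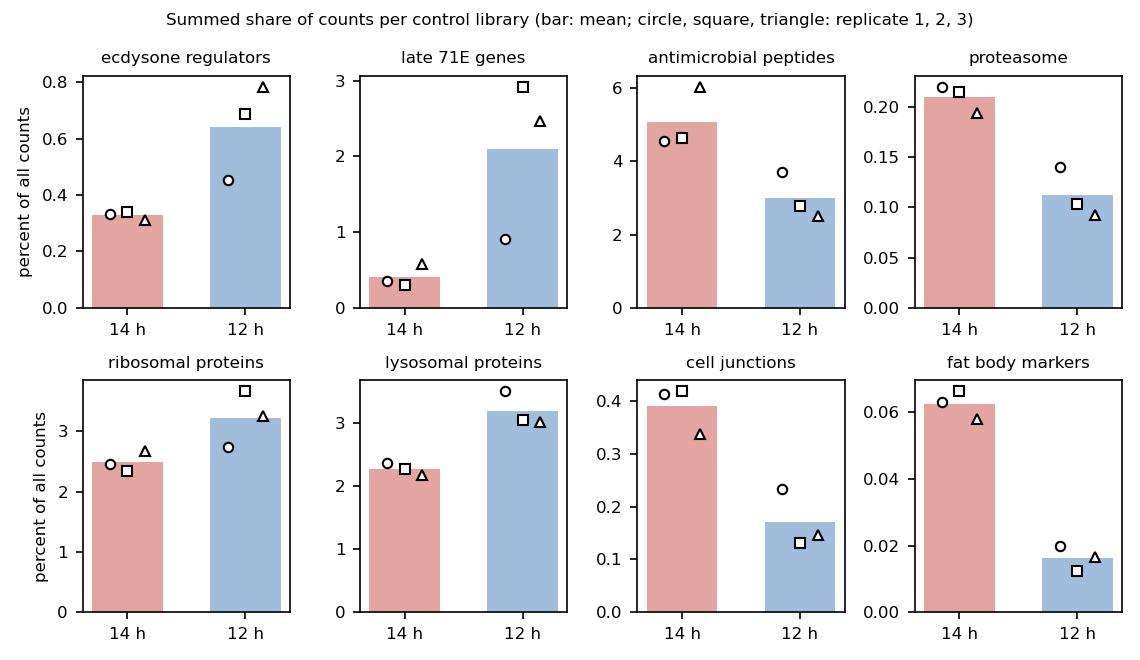
Summed share of all counts (percent, from 0) of 8 gene lists in each control library, 14 h left and 12 h right, with bars at the mean and circles, squares and triangles for replicates 1, 2 and 3. For antimicrobial peptide, proteasome, junction and fat body marker genes all 14 h libraries lie above all 12 h libraries. For ecdysone regulators, late 71E genes, ribosomal proteins and lysosomal proteins all 14 h libraries lie below.

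The genes that changed were spread over the chromosomes. The share called higher ran from 19.4% to 22.2% and the share called lower from 21.3% to 23.9% on the arms 2L, 2R, 3L, 3R and X. On chromosome 4, with 76 tested genes, 11.8% rose and 27.6% fell. Of 222 tested non-coding RNA genes 20.7% rose and 33.3% fell, against 20.9% and 22.1% of 7290 protein-coding genes. Median exon length was 2525 bases for protein-coding genes that rose, 2314 bases for those that fell and 2111 bases for those not called, and the median level was 12, 50.9 and 4.79 CPM in these 3 classes.

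Among neighbouring genes, 34 runs of at least 4 adjacent tested genes rose and 50 fell. With 20.8% of all tested genes called higher and 22.4% lower, some runs would arise without any link between neighbours. Their expected number was not worked out. The longest run was one of 10 falling genes on 3R (16978439 to 17007208) that includes AhcyL2, MESK4, EMC2A, EMC2B, Sf3a1 and Irc, with a median log2 fold change of -3.09. The longest rising run had 8 genes on 2R (11384743 to 11442216) and includes sprt and the aquaporin genes Drip and Prip, with a median of 2.30. On 3L, 7 adjacent genes that fell were Eig71Ea to Eig71Eg (15649126 to 15658149). Reads of overlapping neighbours cannot be told apart without strand, and the strand setting is not given in the sources used here.

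In E93Δ12/E93Δ13 glands, 1715 genes (22.6%) were higher and 1702 (22.4%) lower at 14 h than at 12 h. Of the 3277 genes called in controls, 2423 were called in the same direction in mutants, 51 in the opposite direction, and 803 were not called in mutants. A test of the difference between the time changes called 206 genes (2.72%), of which 156 were also called in controls. The control and mutant comparisons share no library. Median changes of most lists lay side by side, at -1.18 in controls and -1.15 in mutants for ecdysone regulators, -0.88 and -0.92 for cytoplasmic ribosomal proteins, and 0.57 and 0.79 for the proteasome. The late 71E genes had -2.41 in controls and 0.65 in mutants, and the difference passed the test for 5 of 11 members. The list was split in mutants, where 4 members rose and 3 fell. Eig71Ea and Eig71Eb fell in mutants too, by -2.11 and -1.83 (edgeR adjusted p = 0.00956 and 0.0196). For them the difference between genotypes did not pass (edgeR adjusted p = 0.295 and 0.47). hid rose by 2.76 in controls and by 3.02 in mutants, Dcp-1 by 2.66 in controls and by 3.31 in mutants, and neither difference passed (edgeR adjusted p = 0.96 for hid and 0.813 for Dcp-1).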

How the data were processed

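RNA of salivary glands was measured in 12 libraries, 3 in each of 4 groups, and the report uses the 6 control libraries and, for the shared spread, the 6 mutant ones. The deposited table holds raw counts of reads per gene as whole numbers, made by the authors. Per the submitters' processing notes the names given, with no role or order, are STAR 2.7.6a, featureCounts 1.6.3, cutadapt 1.16, DESeq2 1.30.1 and the build BDGP6; annotation release, strand setting and treatment of reads that map to several places are not given in the sources used here. Of 17807 genes 17710 were matched to names and positions in the Ensembl 115 annotation of BDGP6, and 97 were not and stay unnamed. No sequence is shown.

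The filterByExpr rule, given the 4 groups, kept 7584 genes, and TMM set the library scaling. In R 4.3.3, edgeR 4.0.16 fitted 4 group means to the 12 libraries with its quasi-likelihood method (8 residual degrees of freedom), which assumes that the groups share 1 spread. Benjamini-Hochberg adjustment covered every tested gene, and a gene was called at an adjusted p under 0.05. The SE of a log2 fold change is its size divided by the root of the F statistic. The steps were tested on simulated counts in which few genes were changed, as many up as down. That setting could not check the scaling in these data, where 43.2% of tested genes were called. Log2 CPM used a prior count of 2. Total counts per control library ran from 7588162 to 8534529.

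Alternatives were RLE factors, library size alone, no filter, 5 CPM in at least 3 libraries, DESeq2 1.42.0, limma voom (limma 3.58.1), the 6 control libraries alone, a replicate block in 12 or in 6 libraries, an adjusted p under 0.01, a test against a fold change of 1.5, and leaving out each library. No pairing by replicate number was made: the labels give the numbers no shared meaning, and same-number deviations correlated at -0.079 to 0.097. The members, the 39 lists and the alternatives were chosen with earlier results of these data known. Most genes named are part of a set of 198 tested genes chosen by rule. The set holds Eip93F and the 12 largest rises and falls with at least 10 CPM, no overlap and a gene symbol that is not provisional. It also holds the 6 largest called rises and falls in CPM and up to 4 called members of each list by p. The tested ecdysone, death and caspase genes and the highest marker of each tissue complete it. CecC, CecA1, CecA2, CecB, Hsp67Bc, fkh, sage and PH4alphaSG1 and the genes of single runs were chosen after their values were seen. Python 3.11.15 with pandas 2.3.3 and matplotlib 3.10.9 made tables and figures.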

Additional observations from a re-analysis of the deposited data

Results flagged for a closer look

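For 13 of the named genes the change between 14 h and 12 h differed between control and mutant glands by the test of the difference itself (edgeR, Benjamini-Hochberg adjusted over 7584 genes). Values are the log2 time change in controls minus that in mutants. Mutant libraries enter here, and the count of such calls over all genes, 206, became 430 without the 12 h control replicate 1.

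Hr38 fell by 5.45 in controls and by 1.11 in mutants, a difference of -4.34 (SE 0.42, edgeR adjusted p = 0.000193). Mgat3 fell by 4.99 in controls, and its time change in mutants was -0.27, a difference of -4.72 (SE 0.67, edgeR adjusted p = 0.00232). In mutants the mean of Mgat3 was 0.679 CPM at 14 h and 0.812 CPM at 12 h, near the level of 3 counts. That left little room for a fall in mutants, against a mean of 1276 CPM in 12 h controls. The difference of spz was -2.38 (-2.53 in controls, -0.14 in mutants) and that of Vha100-2 was -1.99 (-1.55 in controls, 0.44 in mutants), with edgeR adjusted p of 0.00647 for spz and 0.00593 for Vha100-2. The mean of spz in mutants was 19.9 CPM at 14 h and 22.03 CPM at 12 h, against 21.3 and 122.8 CPM in controls. In 12 h mutants spz thus already stood near its 14 h control level. The calls of Hr38, Mgat3, spz and Vha100-2 held in all 19 alternatives run for them.

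The engulfment receptor gene drpr had a difference of 1.92 (1.95 in controls, 0.03 in mutants, edgeR adjusted p = 0.0175), and mbc one of -1.45 (-3.13 in controls, -1.68 in mutants, edgeR adjusted p = 0.0154). Each held in 15 of 19 alternatives. The late 71E genes Eig71Ed and Eig71Ec had differences of -3.67 (-3.02 in controls, 0.65 in mutants) and -3.47 (-2.54 in controls, 0.93 in mutants), with edgeR adjusted p of 0.0192 for Eig71Ed and 0.0177 for Eig71Ec. Eig71Ed held in 11 and Eig71Ec in 13 of 19 alternatives, and both lost the call without the 12 h mutant replicate 1 (edgeR adjusted p = 0.0559 for Eig71Ed and 0.0529 for Eig71Ec).

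Among nuclear receptor genes, Eip78C had a difference of 1.16 (-1.84 in controls, -3.0 in mutants, edgeR adjusted p = 0.0177) and held in 12 of 19 alternatives. Eip75B had one of 2.24 (-0.93 in controls, -3.17 in mutants, edgeR adjusted p = 0.0384) and held in 8. The other 3 were Sk1, with a difference of 6.93 (5.13 in controls, -1.80 in mutants, edgeR adjusted p = 0.0346), ox, with -1.82 (-1.55 in controls, 0.27 in mutants, edgeR adjusted p = 0.0312), and Hsp26, with -1.43 (-2.21 in controls, -0.78 in mutants, edgeR adjusted p = 0.0467). They held in 8, 9 and 6 of 19 alternatives. Sk1 has few counts in 12 h controls, and its difference was 3.93 without the 12 h mutant replicate 1 and 8.82 without the 12 h control replicate 1.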

How the results depend on the processing

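Of 122 named genes 113 were called, and 107 of these kept their call and direction in all 21 settings that refit them. Hsp67Bc, CecA1, CecA2 and CecB were not among the 122. The calls lost in some setting were those of AttA, CG13748, CG13907, Drice, Dro and Ect3; the settings that ended them are given with each gene, except that Drice also lost its call with no filter on low counts and with a replicate block in the 6 control libraries, and CG13748 with a replicate block in 12 libraries and without single mutant libraries. Calls were gained by CecC in 6 settings (library size alone, 5 CPM, DESeq2, voom, without the 12 h control replicate 1 or the 12 h mutant replicate 2), by fkh in 8 (among them without any one 12 h mutant library, edgeR adjusted p = 0.00554 to 0.0491), by Eip75B in 4, by PH4alphaSG1 in 3, by sage in 1, and by usp, rpr and Bruce with library size alone.

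With library size alone the calls were 3042 higher and 1054 lower, against 1575 and 1702 with TMM. Tested against a fold change of 1.5 they were 827 and 1121, and at an adjusted p under 0.01 928 genes were higher. Leaving out 1 library gave 1068 to 1687 higher and 1398 to 1923 lower. The 206 genes whose time change differed between genotypes became 338 with DESeq2, 71 at an adjusted p under 0.01 and 105 to 430 when 1 library was left out, with 430 without the 12 h control replicate 1, 105, 109 and 129 without the 14 h control replicates 1, 2 and 3, and 121 and 133 without the 14 h mutant replicates 2 and 3. With library size alone 2 values changed sign, that of ftz-f1 to 0.34 and that of Drice to 0.02, while the median of all tested genes shifted upward as well.

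With the replicate number as a block, 1487 genes were higher and 1666 lower in 12 libraries, 1290 and 1385 in the 6 control libraries, and 158 differed between genotypes; the numbers are not known to pair libraries. Limits are the 3 libraries per time, the position of the 12 h control replicate 1, the strand setting, and counts near the level of 3 counts for genes such as Sk1 and Trpml, where small differences were not detectable at this depth.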

Other observations

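Some genes of the 12 h control replicate 1 did not lie between the times. In 40 genes it was at least 2-fold above all other control libraries and in 43 at least 2-fold below. The genes named here were chosen after their values were seen. CG8008 had 3.07, 7.22 and 4.997 CPM at 14 h, and 98.9, 7.79 and 10.2 CPM at 12 h. The cuticle protein gene Cpr100A had 72.9, 82.1 and 48.97 CPM at 14 h, and 279, 64.5 and 33.05 CPM at 12 h. The lysyl-tRNA synthetase gene LysRS had 5.35, 5.75 and 4.33 CPM at 14 h, and 33.7, 12.98 and 15.4 CPM at 12 h. Below all others lay ERp44, a gene of thiol-dependent retention in the endoplasmic reticulum, with 571, 487 and 455.5 CPM at 14 h, and 124, 286 and 328 CPM at 12 h, and prtp, with 565.5, 553 and 449.9 CPM at 14 h, and 197, 533 and 659 CPM at 12 h. The cause was not tested.

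The 12 h control replicate 3 had 398 genes at least 2-fold below all other control libraries, against 8 to 88 in each other control library. It also had the lowest total count and the lowest TMM factor, 0.762, and 9424 genes with a count against 9784 to 10976 in the others.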
